A study of Mus musculus with 15 samples.

Results

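The 3 intact spleens numbered 4, 5 and 6 were compared with the 3 intact spleens numbered 1, 2 and 3. Both sets came from mice without liver resection. The members were assigned by the replicate number in the labels, which took 6 of the 15 arrays of the series. The comparison and the gene lists were set with earlier results of these data known. Apobec3, Ifi213, Ifi209, Ly6d, Pnp, Glo1, Dok2, Stfa2 and Stfa2l1 were known from those results. The other 9 arrays were spleens of mice on day 1, day 3 and day 7 after resection of 70% of the liver, with 3 arrays for each day. Each array measured total RNA of a spleen sample on the Clariom S mouse design. The study's methods give all mice as male C57bl/10 animals and name no transgene or other allele. The labels give no age, litter, cage or scan day for any animal, so the comparison holds no labelled treatment, and what else sets spleens 4-6 apart from spleens 1-3 is not stated. All 22206 features with a gene or transcript identifier were compared out of 28846 on the array, and 19572 of them carried a single gene symbol. In RNA of bulk tissue, fewer cells of a type and less RNA per cell cannot be told apart. Spleens 1 and 2 stood apart from the other 13 arrays by high levels of pancreatic acinar genes, and the counts without them are given with the markers.

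The spleen filters blood in its red pulp and holds B cells, T cells and natural killer cells in its white pulp. Several immune gene families are clustered on mouse chromosomes and are known to differ in sequence, copy number or RNA level between inbred strains and substrains. They include the class I and class II genes of the major histocompatibility complex (MHC), which present peptides to T cells, and the lectin receptors of natural killer cells with their Clr ligands. They also include the PYHIN sensors of cytosolic DNA, the Trim5/Trim30 antiviral proteins, the Ly6 surface proteins and the Serpina1 protease inhibitors. Apobec3, a cytidine deaminase that restricts retroviruses, is a known example whose spleen RNA differs between strains. The genotype of the animals was not measured in these files.

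Spleens 4-6 and spleens 1-3 differed at 131 of 22206 features (limma, adjusted p under 0.05), which was 0.59% of the features tested. Of these, 80 features (0.36%) were higher in spleens 4-6 and 51 (0.23%) were lower. The normalisation holds the arrays at a common level, and the median difference over all tested features was -0.02 on the log2 scale. All 131 called features had intact sets that did not overlap, while 4003 of all features (18%) had sets that did not overlap. A difference of at least 4-fold was found for 54 called features, and a difference of at least 16-fold for 11. For 30 called features the mean of the lower set lay below the median of every array, where the signal may be near background and the difference understated. A single gene symbol was available for 100 of the 131. An unadjusted p under 0.05 was found at 2570 of all features, 11.6%.

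The arrays after resection gave the same measure in other samples, with the spread of both comparisons estimated from all 15 arrays. In the sample order of the series, the intact spleens with the lower numbers stand with day 1 and day 7. The other intact spleens follow and stand with day 3. A change on day 3 therefore cannot be told apart from whatever separates the intact sets, and the part of resection was not tested. Day 3 spleens were compared with day 1 and day 7 spleens together, and 418 features (1.88%) were called, 251 (1.13%) higher and 167 (0.752%) lower on day 3. That count depended on the arrays: it was 144 with the 9 arrays after resection fitted alone, 109 with a replicate block, 169 without day 3 array 2 and 724 without day 3 array 3. Of the 131 features, 83 were also called in this day comparison, all 83 in the same direction, and 42 to 113 features were shared when 1 array was left out. The sign was the same for 130 of the 131, and opposite for 1. On the plot of both differences the called features lay along a rising line, with Pearson's r of 0.958 over the 131 and 0.598 over all features. The 131 were chosen by their intact difference, which leaves out small differences and can raise the first value. Both values are across features that are not independent and were normalised together. The 2 comparisons share no array, but they share 1 estimate of the spread. With only the compared arrays in each fit, 186 features were called between the intact sets and 144 between days. Of these, 57 were called in both in the same direction.

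**Figure D1:**
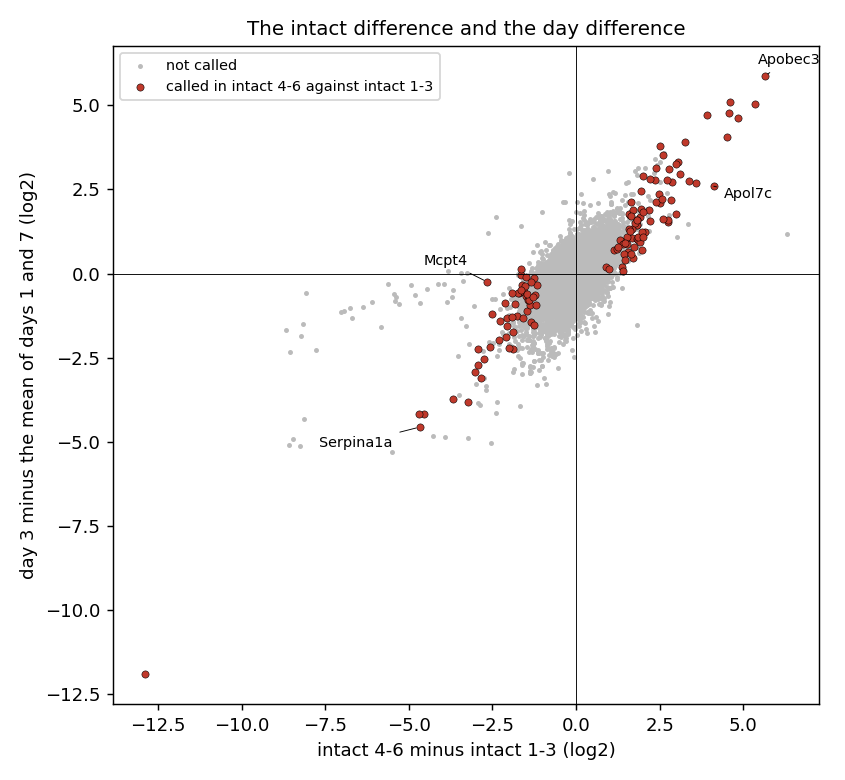
Log2 difference between intact spleens 4-6 and intact spleens 1-3 (horizontal axis) against the log2 difference between day 3 spleens and the mean of day 1 and day 7 spleens (vertical axis), 1 point per feature. The 131 called features (red) lie in the upper right and lower left parts but for 1, and Apobec3 stands at 5.64 and 5.87.

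Apobec3 had the largest measured difference among called genes with higher levels in spleens 4-6. It was already known from earlier results of these data. Its RMA level, a normalised probe signal on the log2 scale, was 10.002, 10.15 and 9.99 in spleens 4, 5 and 6, against 4.24, 4.59 and 4.39 in spleens 1, 2 and 3. The difference was 5.64 ± 0.29 (SE) on the log2 scale (limma, adjusted p = 8.09e-08). The day 3 arrays read 10.40, 10.67 and 9.71, and the 6 arrays of days 1 and 7 lay between 3.81 and 4.89. All 15 arrays therefore fell into a high set, none below 9.71, and a low set, none above 4.89. The mean of spleens 1-3 lay below the median of every array, 4.74 to 4.89, where the signal may be near background. Whether the difference is understated was not tested. The other 3 measured deaminases of the list, Apobec1, Apobec2 and Apobec4, were not called, with differences of 1.35, 0.60 and 0.32.

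Gm1966 and Gm4759, the second of them a pseudogene in RefSeq, are neighbours on chromosome 7, near Gvin1, a very large interferon-inducible GTPase. Gm1966 read 11.21, 10.77 and 10.83 in spleens 4-6, against 5.59, 5.56 and 5.62 in spleens 1-3 (difference 5.34 ± 0.35, adjusted p = 1.12e-06). It was high on day 3, at 9.78 to 11.47, and between 5.08 and 5.95 on days 1 and 7. Gm4759 differed by 2.85 ± 0.49 (adjusted p = 0.0152). Gvin1 itself averaged 13.19 in spleens 4-6 and 10.99 in spleens 1-3 and missed the threshold (adjusted p = 0.0653). The smaller interferon-inducible GTPases of the Gbp and Irg families had no called member among the 15 measured, Gvin1 included, and their median difference was -0.03.

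**Figure D2:**
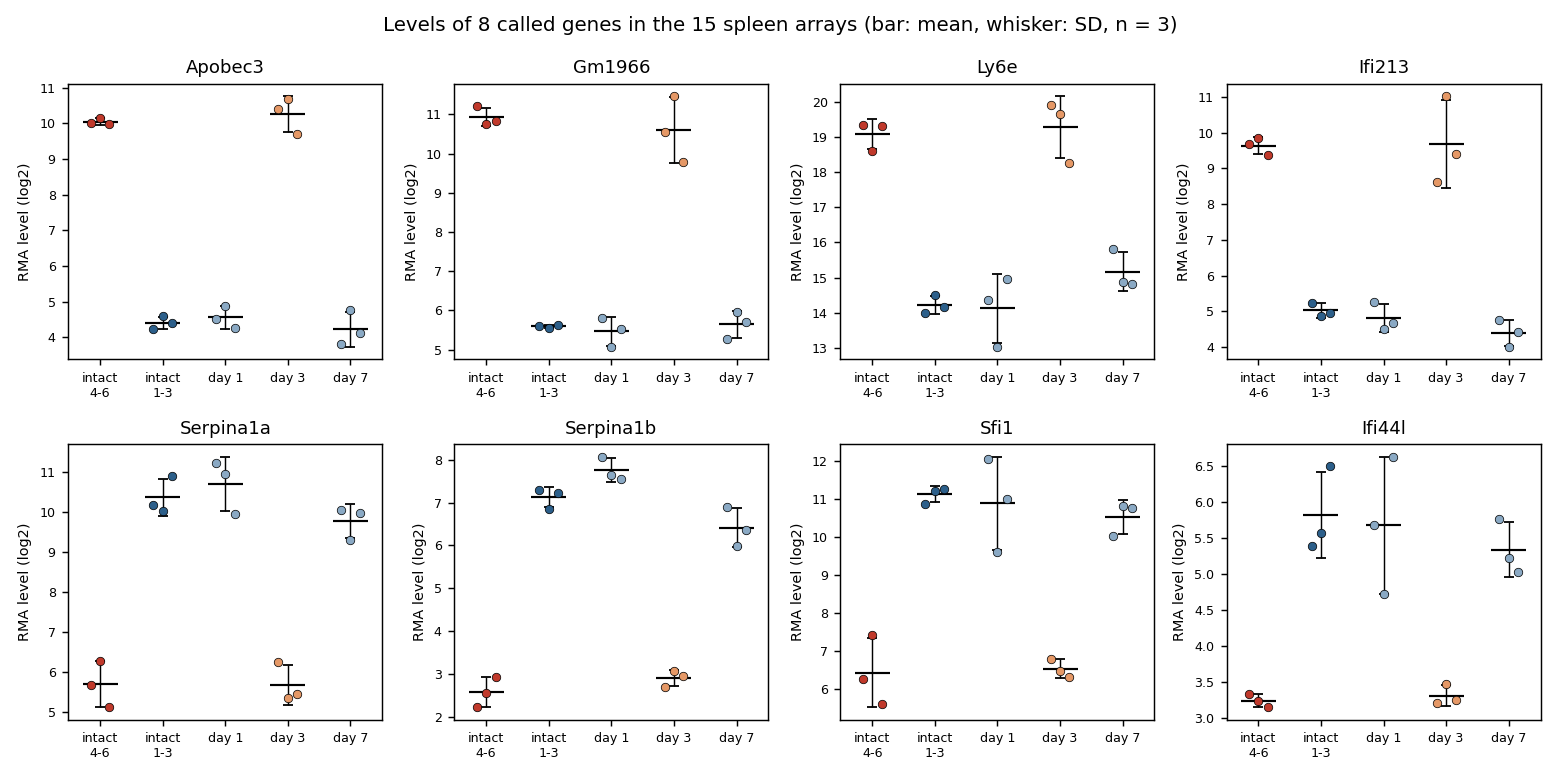
RMA level (log2) of 8 called genes in each of the 15 arrays, with the group mean and SD (n = 3). In every panel the day 3 arrays sit beside intact 4-6 and the day 1 and day 7 arrays beside intact 1-3. The low Apobec3 arrays lie between 3.81 and 4.89.

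The PYHIN family had 2 called members, both higher in spleens 4-6, beside 0.59% of all features. Both were already known from earlier results of these data. Ifi213 read 9.68, 9.85 and 9.39 in spleens 4-6, against 5.24, 4.86 and 4.96 in spleens 1-3 (difference 4.62 ± 0.44, adjusted p = 0.000115). On day 3 it read 8.63, 11.03 and 9.40, all above its highest value of 5.26 on days 1 and 7. Its neighbour Ifi209 was also called (adjusted p = 0.0495), in 5 of 13 settings, and these were the 2 of 9 measured members. Ifi208 and Mndal had differences of 2.63 and 1.65 without passing the test (adjusted p = 0.0717 and 0.183). Aim2, the sensor that assembles an inflammasome, differed by 0.01, Ifi204 by 0.29 and Ifi207 by -0.23. Members of the cluster thus ranged widely, with a family median of 0.64.

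The Trim5/Trim30 cluster on chromosome 7 had 2 of 8 members called, both higher in spleens 4-6, beside 0.59% of all features. Trim12a read 12.18, 12.42 and 12.06 in spleens 4-6, against 9.07, 8.65 and 9.76 in spleens 1-3 (difference 3.06 ± 0.34, adjusted p = 0.00041). Trim30d differed by 2.59 ± 0.43 (adjusted p = 0.0127). Trim30b averaged 5.85 in spleens 4-6 and 4.00 in spleens 1-3 (adjusted p = 0.0554). Trim30a, a brake on Toll-like receptor signalling, averaged 9.08 in spleens 4-6 and 7.85 in spleens 1-3 (adjusted p = 0.172). Trim12c and Trim21 differed by 0.31 and 0.25. An unnamed feature of chromosome 7, TC0700003936, was higher by 4.51 ± 0.33 in spleens 4-6 (adjusted p = 4.83e-06).

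The Ly6 surface proteins are small proteins held to the membrane by a lipid anchor. Of 27 measured members 3 were called, all higher in spleens 4-6, beside 0.59% of all features. Ly6e, an interferon-inducible member that restricts some viruses, read 19.34, 18.59 and 19.31 in spleens 4-6, against 14.002, 14.51 and 14.16 in spleens 1-3 (difference 4.86 ± 0.49, adjusted p = 0.000169). The day 3 arrays lay at 19.91, 19.65 and 18.27 and the arrays of days 1 and 7 between 13.04 and 15.81. The top of the value range is 19.93, and a day 3 array lay just below it. Ly6d, a marker of the B lineage, read 10.98, 8.37 and 11.49 in spleens 4-6, against 5.73, 5.37 and 6.03 in spleens 1-3, and its spread was wide (SE 0.78, adjusted p = 0.0149). Ly6c1 and Ly6c2 differed by -1.09 and -1.37 without a call. The family median of 0.12 was close to that of all features.

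The promoters of 3 of the genes above are shown because they hold a motif of interferon-responsive genes. Of the 45 called higher genes with a RefSeq promoter window, 8 (17.8%) held the core of the interferon-stimulated response element, against 3.99% of all 27025 genes in the table. The element was searched on both strands as GAAA, any 2 bases and GAAA again. The 8 genes were Apobec3, Gm1966, Ifi213, Trim12a, Trim30d, Apol7c, Apol7e and Slc28a2b. Of the 32 called lower genes with a window, Skp2 and Mrpl20 held it, 6.25%. Each window runs from 250 bases before to 50 bases after an annotated start in RefSeq build GRCm38.p6, 5′ to 3′ on the gene's strand, with the match in capitals (its reverse complement where the match is on the other strand). Apobec3 has a second annotated start without the match. A match is a description of the reference sequence, not of binding or of these animals.
Apobec3, chr15:79892158-79892457, plus strand: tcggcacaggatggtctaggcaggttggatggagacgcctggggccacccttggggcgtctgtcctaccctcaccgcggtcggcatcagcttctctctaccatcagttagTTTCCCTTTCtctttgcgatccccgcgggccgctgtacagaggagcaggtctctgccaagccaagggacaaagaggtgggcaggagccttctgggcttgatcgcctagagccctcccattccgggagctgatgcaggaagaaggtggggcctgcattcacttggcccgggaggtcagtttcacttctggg
Gm1966, chr7:106644596-106644895, minus strand: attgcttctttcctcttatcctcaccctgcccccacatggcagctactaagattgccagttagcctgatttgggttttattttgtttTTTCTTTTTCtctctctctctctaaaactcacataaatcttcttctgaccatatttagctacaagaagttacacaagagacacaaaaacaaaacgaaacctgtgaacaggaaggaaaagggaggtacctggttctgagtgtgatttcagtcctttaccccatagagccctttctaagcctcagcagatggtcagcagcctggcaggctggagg
Ifi213, chr1:173599223-173599522, minus strand: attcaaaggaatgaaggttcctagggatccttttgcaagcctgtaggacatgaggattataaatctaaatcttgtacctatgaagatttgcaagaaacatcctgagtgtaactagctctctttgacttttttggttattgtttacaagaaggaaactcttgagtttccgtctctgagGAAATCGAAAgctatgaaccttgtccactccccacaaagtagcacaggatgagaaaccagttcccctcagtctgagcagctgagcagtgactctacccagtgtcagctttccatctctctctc

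The list of classic interferon-stimulated effectors had 1 called member, beside 0.59% of all features. Of 46 measured members 1 was called, and it was lower: Ifi44l, an interferon-induced gene, read 3.34, 3.24 and 3.15 in spleens 4-6, against 5.38, 5.57 and 6.51 in spleens 1-3 (difference -2.58 ± 0.40, adjusted p = 0.00681). The day 3 arrays were equally low, at 3.20 to 3.48, and the arrays of days 1 and 7 lay between 4.72 and 6.62. Oasl2 and Ifit1bl1 had positive differences of 1.84 and 1.66 that missed the threshold (adjusted p = 0.0704 and 0.101). Between the intact sets the list median was 0.32, and 32 of the 46 had positive differences. Between day 3 and days 1 and 7 the list median was 0.75. In that comparison Oasl2, Ifit1bl1 and Mx1 were called higher, with differences of 3.15, 2.14 and 1.66 (limma, adjusted p = 0.000393, 0.0067 and 0.000907). Ifi44l was called lower there, with a difference of -2.20 (adjusted p = 0.00423). The list does not hold every interferon-inducible gene: Ly6e, counted with the Ly6 proteins above, was called higher.

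In the MHC, 1 class I gene and 1 class II gene were called, beside 0.59% of all features. H2-Q5, a gene of the Qa region, read 10.36, 10.07 and 10.47 in spleens 4-6, against 8.37, 8.45 and 8.28 in spleens 1-3 (difference 1.93 ± 0.29, adjusted p = 0.00572). H2-Eb2, a class II beta chain gene, differed by 2.36 ± 0.42 (adjusted p = 0.0197). H2-K1 and H2-Eb1, a classical class I and a classical class II gene, averaged 16.73 and 13.93 in spleens 4-6, against 15.31 and 11.41 in spleens 1-3, and each missed the threshold at adjusted p = 0.0582. H2-Aa, a class II alpha chain gene, differed by -0.28. Among the 15 class II and peptide loading genes 13 had positive differences and the median was 1.13, while the median over the 29 genes matched by class I symbols was 0.11. B cells carry class II molecules, and B cell markers had a median difference of 1.04, whose part in these values was not tested.

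The largest measured difference was at an unnamed feature of chromosome 17. TC1700001907 read 2.94, 3.73 and 3.22 in spleens 4-6, against 15.55, 16.21 and 16.80 in spleens 1-3, a difference of -12.89 ± 0.43 (adjusted p = 3.75e-10). The day 3 arrays read 4.11, 2.96 and 3.88, and the 6 arrays of days 1 and 7 lay between 14.52 and 17.17. No array was intermediate. A second unnamed feature, TC0100003599 on chromosome 1, showed the same split, with 2.77 to 3.30 in spleens 4-6, against 6.15 to 7.01 in spleens 1-3. Neither feature has a gene name in the tables used here.

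On chromosome 6, receptors and ligands of natural killer cells were called in small numbers, beside 0.59% of all features. Klra7, an inhibitory Ly49 receptor, read 5.84, 6.60 and 5.84 in spleens 4-6, against 3.77, 4.85 and 3.88 in spleens 1-3 (adjusted p = 0.0132), and was 1 of 9 measured Ly49 genes called. The neighbouring pseudogene Klra13-ps differed by 1.82 (adjusted p = 0.0461). Clec2g and Clec2f, members of the Clr ligand family, differed by 1.85 and 1.54 (adjusted p = 0.0127 and 0.0251), 2 of 22 genes of the NKG2, Nkrp1 and Clr list. Between day 3 and days 1 and 7, Klra7, Clec2g and Clec2f differed by 0.92, 0.99 and 0.88 and were not called (limma, adjusted p = 0.116, 0.0819 and 0.0902). Klra13-ps differed by 1.59 and was called (adjusted p = 0.0241). Klra2, Klrc1 and Clec2i were called between days only, with differences of 2.07, 1.01 and 1.67 (adjusted p = 0.00227, 0.0289 and 0.0487). Klra9 and Klra10 were called in neither comparison. The mean level of 13 natural killer markers was 5.64, 5.54 and 5.66 in spleens 4-6, against 5.12, 4.92 and 5.25 in spleens 1-3, and the part of natural killer cell number in these differences was not tested.

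Receptors of lymphocytes were higher in spleens 4-6 at a few genes. Il21r, the receptor of a T cell cytokine that drives B cell differentiation, read 7.95, 6.87 and 8.41 in spleens 4-6, against 4.47, 4.93 and 5.68 in spleens 1-3 (difference 2.72 ± 0.49, adjusted p = 0.0219). Il10ra, the receptor chain for the anti-inflammatory interleukin 10, differed by 1.52 ± 0.30 (adjusted p = 0.0352). They were the 2 called among 66 interleukins and interleukin receptors, beside 0.59% of all features. B cell markers had a median difference of 1.04 with 16 of 17 positive, and T cell markers 0.57 with 14 of 16 positive and 0 called in limma (6 at an unadjusted p under 0.05). T cell markers averaged 8.92, 8.03 and 9.07 in spleens 4-6, against 7.93, 7.52 and 8.37 in spleens 1-3, and their part in the receptor levels was not tested. Btla, an inhibitory receptor of B and T cells, differed by 1.65 ± 0.32 (adjusted p = 0.0324) and was chosen for mention after its values were seen. No member was called among 59 chemokines and chemokine receptors, 38 genes of the tumour necrosis factor superfamily, 33 complement genes or 16 Toll-like receptors in limma, where 8, 4, 7 and 6 of them had an unadjusted p under 0.05, beside 11.6% of all features.

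Apol7b, Apol7c and Apol7e, neighbouring apolipoprotein L genes on chromosome 15, formed the only run of 3 called genes with at most 5 tested genes between them. Apol7c, a gene of dendritic cells, read 7.53, 7.52 and 7.72 in spleens 4-6, against 3.78, 3.37 and 3.26 in spleens 1-3 (difference 4.12 ± 0.58, adjusted p = 0.00393). The day 3 arrays were spread, at 3.77, 7.37 and 5.37, so that 1 of them lay at the low level. Apol7b and Apol7e differed by 1.85 and 2.75 (adjusted p = 0.0161 and 0.000923). With the level of pancreatic acinar genes as a covariate, none of the 3 was called (limma, adjusted p = 0.153 for Apol7b, 0.0941 for Apol7c and 0.0638 for Apol7e). With spleen 3 as the only array of spleens 1-3, Apol7b, Apol7c and Apol7e differed by 2.26, 4.32 and 2.69. Apol7b was called in 6 of 13 settings. The promoter windows of Apol7b and Apol7e are identical at 96.1% of aligned positions, and how far probes of one gene read RNA of the other was not tested.

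In the list of glyoxalase and purine salvage genes 3 of 10 were called, Pnp, Pnp2 and Glo1, beside 0.59% of all features. The list median was -0.09. Pnp, purine nucleoside phosphorylase, which breaks down inosine and guanosine, read 11.96, 12.12 and 11.55 in spleens 4-6, against 8.49, 8.60 and 7.77 in spleens 1-3 (adjusted p = 0.00566). Pnp2, its neighbouring copy on chromosome 14, read 12.09, 12.74 and 11.72 in spleens 4-6, against 8.81, 9.10 and 8.51 in spleens 1-3 (adjusted p = 0.0118). Slc28a2 and Slc28a2b, adjacent genes on chromosome 2 for nucleoside transporters, are in no list and differed by 2.99 and 2.61 (adjusted p = 0.0249 and 0.00243). Copies as alike as Pnp and Pnp2 may share probe signal, which was not tested. Ada, Aprt and Hprt, other enzymes of purine salvage, differed by 0.02, 0.32 and -0.20.

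Serpina1a and Serpina1b, which encode alpha-1-antitrypsin, an inhibitor of neutrophil elastase made chiefly by the liver, were called lower in spleens 4-6 under every setting tried. Serpina1a read 5.66, 6.28 and 5.12 in spleens 4-6, against 10.18, 10.02 and 10.90 in spleens 1-3 (difference -4.68 ± 0.39, adjusted p = 2.35e-05). Serpina1b read 2.24, 2.56 and 2.94 in spleens 4-6, against 7.30, 6.85 and 7.22 in spleens 1-3 (difference -4.54 ± 0.27, adjusted p = 3.89e-07). Day 3 arrays lay at 5.33 to 6.24 for Serpina1a and 2.70 to 3.07 for Serpina1b. On days 1 and 7 Serpina1a lay at 9.30 to 11.22 and Serpina1b at 5.99 to 8.06, so the split again covered all 15 arrays. Serpina1c and Serpina1e had differences of -1.61 and -1.27 (adjusted p = 0.097 and 0.126), Serpina1d of -0.55, and Serpina3n, an acute phase member, of -0.29. The 2 called genes were among 12 measured in the Serpina1 and Serpina3 clusters, beside 0.59% of all features. The median of the 12 was -0.47. How far probes of Serpina1a and Serpina1b read RNA of each other was not tested. Of the other 11 liver marker genes none was called, and the mean of the 12 liver markers was 4.40 to 4.55 in spleens 4-6 and 5.00 to 5.34 in spleens 1-3, Serpina1a included.

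The promoter windows of these 2 genes are given because both genes were called lower and their windows are identical at 89.3% of aligned positions. GTTAAT, a core of the site of the liver factor HNF1, was searched on both strands and is in capitals. It stands in both windows just before the start, and in 7.1% of all 32851 windows. Among called genes with a window it was held by 3 of 32 lower (9.38%) and 5 of 45 higher (11.1%), beside 8.24% of all genes.
Serpina1a, chr12:103863570-103863869, minus strand: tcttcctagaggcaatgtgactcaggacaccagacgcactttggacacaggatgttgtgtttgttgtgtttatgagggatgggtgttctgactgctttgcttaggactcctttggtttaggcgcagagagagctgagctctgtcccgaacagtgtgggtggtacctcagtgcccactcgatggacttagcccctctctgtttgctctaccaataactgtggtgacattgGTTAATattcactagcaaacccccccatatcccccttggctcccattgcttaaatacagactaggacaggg
Serpina1b, chr12:103738140-103738439, minus strand: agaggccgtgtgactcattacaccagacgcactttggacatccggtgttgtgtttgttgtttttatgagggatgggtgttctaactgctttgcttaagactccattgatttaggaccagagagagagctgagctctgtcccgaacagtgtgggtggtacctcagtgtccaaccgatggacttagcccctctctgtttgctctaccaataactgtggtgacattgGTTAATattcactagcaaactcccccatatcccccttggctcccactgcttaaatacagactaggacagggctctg

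Further genes lower in spleens 4-6 belonged to no common family. Sfi1, a centriole protein, read 6.25, 7.41 and 5.61 in spleens 4-6, against 10.88, 11.22 and 11.28 in spleens 1-3 (difference -4.70 ± 0.52, adjusted p = 0.000383). Ugt8a, which makes galactosylceramide, differed by -3.24 ± 0.41 (adjusted p = 0.00135), and its neighbour on chromosome 3, the kinase gene Camk2d, moved the other way by 2.17 ± 0.38 (adjusted p = 0.0161). Ryk, a receptor of Wnt proteins, and Mrpl20, a mitochondrial ribosomal protein, differed by -2.94 and -2.74. Dok2, an adaptor that dampens signalling in blood cells, read 9.31, 9.14 and 8.75 in spleens 4-6, against 12.06, 11.73 and 12.48 in spleens 1-3 (adjusted p = 0.0266), and on day 1 array 2 read 9.60 while the other day 1 arrays read 12.28 and 12.37. Glo1, which detoxifies methylglyoxal, read 10.75, 10.74 and 10.64 in spleens 4-6, against 12.32, 13.41 and 12.60 in spleens 1-3 (adjusted p = 0.032). Dnah8 and Btbd9, named with Glo1 in the list, had differences of -2.77 and -1.03 and were not called (adjusted p = 0.141 and 0.151).

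Over the lists of strain-variable and immune families as a whole, 23 of 1103 tested features were called, or 2.09%, beside 0.59% of all features. The lists were chosen with earlier results of these data known, and 6 of the 23 were genes known from them, so the excess is partly built in. With the acinar level as a covariate 7 of the 23 were called, and with spleen 3 alone 5. The SLAM receptors, the Fc gamma receptors, the Nlrp1 and Naip sensors, the Ifitm proteins and the stefins had no called member in limma, with 3 of 9, 2 of 12, 3 of 8, 0 of 6 and 2 of 8 members at an unadjusted p under 0.05, beside 11.6% of all features. Of 359 zinc finger genes 1 was called, Zfp207. The stefins, inhibitors of cysteine proteases in neutrophils, had a median difference of -1.04, and Stfa2 and Stfa2l1 averaged 3.70 and 5.17 in spleens 4-6, against 9.21 and 9.46 in spleens 1-3, with SEs of 2.11 and 2.00 (adjusted p = 0.314 and 0.431). Outside the lists were 77 of the 100 called genes with a symbol.

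**Figure D3:**
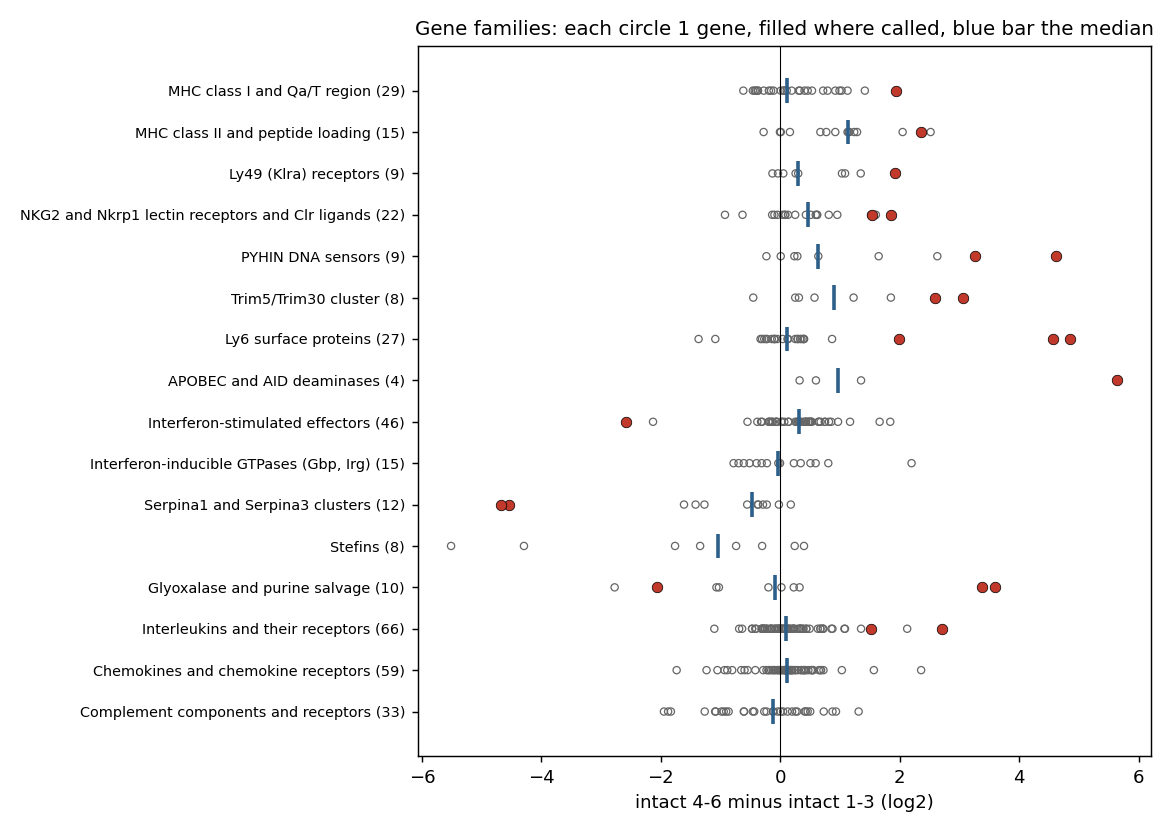
Log2 difference between intact spleens 4-6 and intact spleens 1-3 for each measured gene of 16 families (number of genes in brackets), with called genes filled in red and the family median as a blue bar. Apobec3 at 5.64 and Serpina1a at -4.68 lie far from the medians of their families, 0.98 and -0.47.

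Where the arrays after resection fell was described by a position, 0 at the mean of spleens 1-3 and 1 at the mean of spleens 4-6, taken over the 131 called features. The median position was 0.06, 0.12 and 0.11 in the day 1 arrays, 0.76, 0.89 and 0.73 in the day 3 arrays, and 0.05, 0.01 and -0.04 in the day 7 arrays. Day 3 arrays were nearer to spleens 4-6 at 93, 109 and 98 of the 131 features, day 1 arrays at 11, 15 and 8, and day 7 arrays at 10, 12 and 5. At 55 features the split was complete, with all 3 day 3 arrays nearer to spleens 4-6 and all 6 arrays of days 1 and 7 nearer to spleens 1-3. Over all features, the correlation of day 3 arrays was 0.964 to 0.977 with spleens 4-6 and 0.944 to 0.973 with spleens 1-3. Day 3 arrays and spleens 4-6 also stand together in the sample order, and the part of the day in the positions was not tested.

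**Figure D4:**
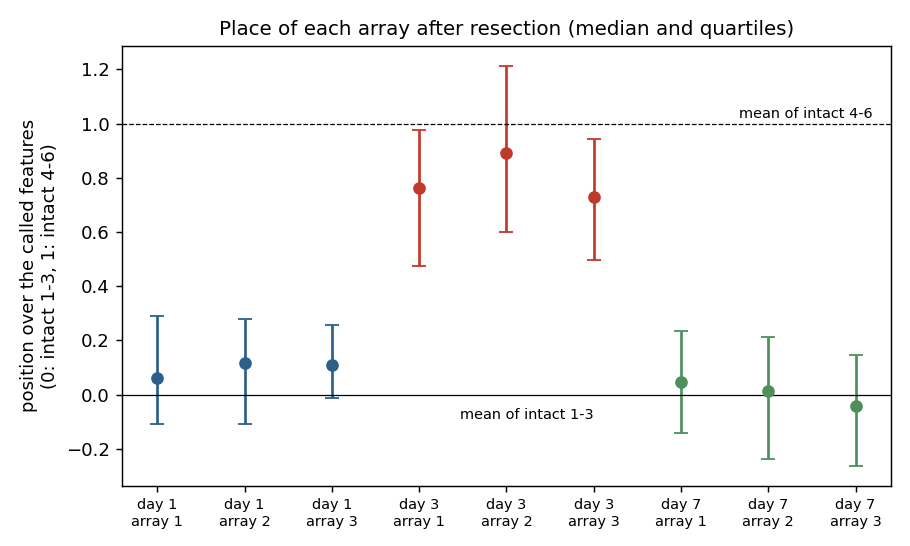
Median position of each array after resection over the 131 called features, with the quartiles as whiskers; 0 is the mean of intact 1-3 and 1 (dashed) the mean of intact 4-6. The 3 day 3 arrays have medians of 0.73 to 0.89, and the 6 arrays of days 1 and 7 have medians of -0.04 to 0.12.

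Some called features did not follow this split. At 12 features all 9 arrays after resection were nearer to spleens 1-3 than to spleens 4-6. They included Rbm3, a cold-inducible RNA-binding protein, which read 15.07, 16.73 and 14.92 in spleens 4-6, against 17.73, 17.76 and 18.71 in spleens 1-3, with 16.92 to 19.15 after resection. Rpl15, Ndufs8, Cops6, Erh and Dld were also lower in spleens 4-6. They are genes of the ribosome, respiratory complex I, the COP9 signalosome, RNA processing and the pyruvate dehydrogenase complex. Median day 3 positions lay partway for Ndufs8, Dld and Rbm3, at 0.412, 0.385 and 0.384. They were 0.0368, 0.195 and -0.00283 for Rpl15, Cops6 and Erh. Ndufs8 was called in 11 of 13 settings, Erh in 6, Cops6 and Dld in 5, Rbm3 in 4 and Rpl15 in 2. With the acinar level as a covariate none of them was called. Ear6, a ribonuclease of eosinophils, was higher in spleens 4-6, at 5.25 to 5.91, against 3.62 to 4.18 in spleens 1-3, and was called in 5 of 13 settings. Pdk1, a kinase that restrains pyruvate dehydrogenase, was the single feature at which all 9 arrays were nearer to spleens 4-6. Mcpt4, a mast cell protease, was low in spleens 4-6 (2.71, 2.87 and 2.91) and high in spleens 1-3 (5.24, 5.22 and 6.01). It was between 2.835 and 4.26 in the arrays after resection, with a day 3 difference from days 1 and 7 of -0.25. Its median positions were 0.978, 0.861 and 0.823 on days 1, 3 and 7. A test of the difference between the intact and the day comparison called 0 of 22206 features in limma (smallest adjusted p = 0.462), with 954 at an unadjusted p under 0.05, 30 of them among the 131.

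The called features were spread over the chromosomes, with 0 of 1015 on chromosome 10 and 0 of 219 on chromosome Y. The share was 1.28% on chromosome 15, 1.08% on chromosome 14, 1.04% on chromosome 12, 1.03% on chromosome 17 and 0.837% on chromosome 7. Of the 100 called genes with a symbol, 23 had another called gene within 5 tested genes. These were the pairs and the run named above, and Lynx1 beside Ly6d.

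Among the genes of the cell type marker lists, Ly6d and Serpina1a were called, beside 0.59% of all features. Pancreatic acinar genes, which encode digestive enzymes and are foreign to the spleen, had mean levels of 5.41, 3.63 and 3.82 in spleens 4, 5 and 6, against 12.996, 10.86 and 4.41 in spleens 1, 2 and 3. Spleens 1 and 2 were high and spleen 3 was not, so the sets overlapped. All 29 acinar genes had a lower mean in spleens 4-6 and an unadjusted p under 0.05, and none was called. B cell markers were at 11.05, 10.33 and 10.95 in spleens 4-6, against 9.26, 9.51 and 10.13 in spleens 1-3, and 1 of 17, Ly6d, was called. In limma 6 of the 17 had an unadjusted p under 0.05, all higher in spleens 4-6, beside 11.6% of all features. Red pulp macrophage markers were at 8.43 to 8.71 in spleens 4-6, against 8.94 to 9.45 in spleens 1-3, with 0 of 17 called and 4 at an unadjusted p under 0.05 in limma. Neutrophil markers overlapped, at 10.26 to 12.35 in spleens 4-6 against 11.55 to 13.73 in spleens 1-3. Spleen identity genes were at 9.50 to 9.56 in spleens 4-6 and 9.20 to 9.99 in spleens 1-3. Eif2s3y, a gene of chromosome Y, averaged 8.67 in spleens 4-6 and 10.67 in spleens 1-3 (adjusted p = 0.0528).

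**Figure D5:**
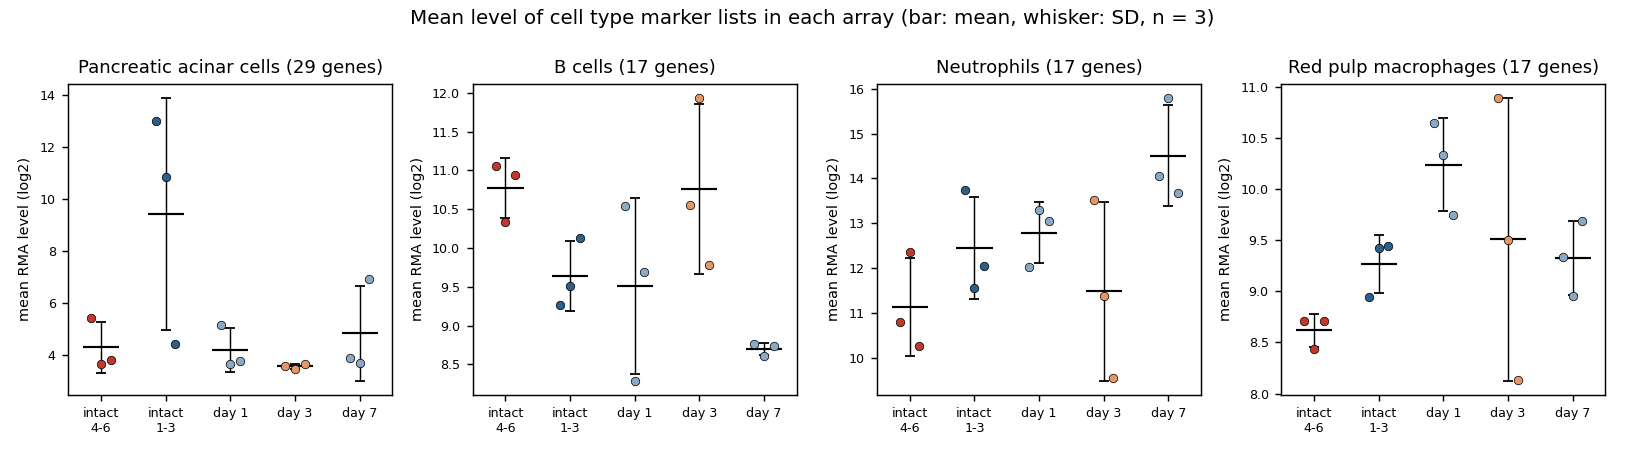
Mean RMA level (log2) of 4 marker lists in each array, with the group mean and SD (n = 3). Acinar genes are at 12.996 and 10.86 in intact spleens 1 and 2 and at 6.92 or below in the other 13 arrays, while the B cell markers of intact 4-6 lie at 10.33 to 11.05, above those of intact 1-3.

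The acinar level was therefore carried through the comparison. With it as a covariate 18 features were called, 17 of them among the 131, and all 131 kept their sign. With spleen 3 as the only array of spleens 1-3, 12 features were called, 11 of them among the 131, and all 131 again kept their sign, where the single array was then taken to vary like the other groups. Called in every one of 13 settings were 10 of the 131: Apobec3, Gm1966, Ly6e, Ifi213 and 5830417I10Rik with TC0700003936 on the higher side, and Serpina1a, Serpina1b, TC0100003599 and TC1700001907 on the lower side. Trim12a, Arl2bp, Sfi1 and Ifi44l were lost only with spleen 3 alone. H2-Q5, Pnp, Slc28a2, Klra7, Il21r, Dok2 and Glo1 were lost both with the acinar covariate and with spleen 3 alone, as were Ifi209, Ly6d, Lynx1, Trim30d, H2-Eb2, Clec2g, Clec2f, Pnp2 and Il10ra. Called members then numbered 1 of PYHIN and 1 of Ly6 in each setting, 0 of the MHC, and 1 of the Trim5/Trim30 cluster with the covariate. Their differences kept the sign. With the covariate H2-Q5 differed by 1.94 (adjusted p = 0.15) and Pnp by 3.89 (adjusted p = 0.0941). With spleen 3 alone H2-Q5 differed by 2.02 (adjusted p = 0.252) and Dok2 by -3.41 (adjusted p = 0.353). Clec2f differed by 1.11 with the covariate and 1.09 with spleen 3 alone, against 1.54 in the fit of all arrays. Leaving out spleen 1 or spleen 2 left 59 calls each, and leaving out spleen 4 or spleen 6 left 54 and 56.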

How the data were processed

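RNA of 15 spleen samples was measured on 1 Clariom S mouse array each. The authors background-corrected, normalised and summarised the probes by RMA with the default options of the Transcriptome Analysis Console, and deposited log2 values per feature. The genome build is not given in the sources used here. Array signal carries no read depth, so 3 arrays per group limit the precision. Array medians lay between 4.74 and 4.89, and 45 features reached exactly the shared upper end of 19.93, none of them called.

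Groups came from the labels, which call the samples biological replicates. The 6640 control features were left out. All other features entered 1 limma fit (version 3.58.1, R 4.3.3) with 5 groups and empirical Bayes moderation. Intact 4-6 minus intact 1-3, day 3 minus the mean of days 1 and 7, and their difference were taken as contrasts, with Benjamini-Hochberg adjustment over 22206 features at 0.05. For 55 genes with several features, the one with the highest mean stood for the gene in the lists. The fit was tested on simulated data.

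The members and lists were chosen with earlier results of these data known. Named were the 12 highest and 12 lowest called genes, up to 4 members with the smallest adjusted p of each list with a called member, runs of 3 neighbours, and 9 genes known earlier. Other genes and unnamed features were chosen after their values were seen. Alternatives were other fits, filters, normalisations and thresholds, the acinar level as a covariate, a replicate block, and leaving out arrays. Probe sequences were not used here.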

Additional observations from a re-analysis of the deposited data

How the results depend on the processing

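With the compared arrays alone in the fit, 87 features were lower in spleens 4-6 instead of 51, day 3 against days 1 and 7 had 144 calls instead of 418, and the group mean positions were 0.0502 on day 1 (0.0954 in the fit of all arrays) and -0.0762 on day 7 (0.00567). With the acinar covariate, 18 features were called (10 higher and 8 lower), 17 in both comparisons, with positions of 0.0199, 0.989 and 0.0911 on days 1, 3 and 7. With spleen 3 as the only array of spleens 1-3, 12 were called (7 higher and 5 lower), 11 in both, with positions of 0.0164, 0.983 and 0.112. At a 2-fold change with an unadjusted p under 0.05, 888 were called (394 higher and 494 lower), 1095 between days and 354 in both, with a day 1 position of 0.19. At an adjusted p under 0.01, 45 were called (29 higher and 16 lower), 125 between days and 30 in both, with a day 3 position of 0.89. Leaving out 1 array at a time gave 54 to 125 calls (34 to 62 higher and 19 to 63 lower), 169 to 724 between days and 42 to 113 in both. Positions then ran from 0.0752 to 0.315 on day 1, from 0.699 to 0.962 on day 3 and from -0.0205 to 0.170 on day 7. Between days, 278 features were called without day 1 array 2, 256 without day 3 array 1, 169 without day 3 array 2 and 724 without day 3 array 3. Signs turned for the uncalled genes Ear14 and Ear10 without spleen 2 and without spleen 5. With 1 array left out, Ear14 ran from -0.0742 to 0.243 and Ear10 from -0.221 to 0.353. Why the counts moved was not tested. Of 42 named called genes, 6 stayed called in all 13 settings.

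No paired analysis was possible because spleens 4-6 and spleens 1-3 share no replicate number. Among arrays after resection, the replicate block left 109 calls between days. Same-numbered arrays had deviations correlated at -0.188 to 0.222, and differently numbered arrays at -0.347 to 0.268. With 3 arrays per group these values cannot decide whether same-numbered arrays share more than a number. Only 3 arrays per set and the top of the signal range limit the precision.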
